A study of Rattus norvegicus with 12 samples.

Results

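Axon guidance ligands and receptors were followed in the hippocampus of young rats across 4 groups of samples. The members are the probe sets (the array's short-probe groups, each reporting 1 transcript region) whose only gene symbol is an Eph receptor, ephrin, semaphorin, plexin, Slit, Robo, Unc5-named gene, neuropilin, Ntn1, Dcc, Rtn4 or Rtn4r. The rule uses names only, and it took 61 of 15866 probe sets, which report 45 of the 10411 genes named on the array. The symbol prefix Unc5 also takes Unc50 and Unc5cl, which resemble the netrin receptors in name and are described apart from them.

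Rats received PBS (phosphate-buffered saline) or KA at postnatal day 20. The labels do not spell KA out. Since the series concerns seizures, it is read as kainic acid, which excites glutamate receptors and can induce seizures. PBS_isolated rats received PBS and spent the 10 days before tissue collection in individual cages, and KA_isolated rats received KA and lived in the same way. PBS_enriched and KA_enriched rats received PBS or KA and lived in large cages of 8 rats each. The labels give no time for the enriched housing, and neither strain nor sex is used here. Each group had 3 samples, each a pool of hippocampi from 3 to 4 animals on an array of its own, so n counts pools and p-values measure the spread between pools. There was no group in ordinary group housing, and an effect of sharing a cage cannot be told apart from enrichment, nor enrichment from the lack of isolation.

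Guidance cues steer growing axons by attracting or repelling their growth cones. Eph receptors are tyrosine kinases that bind ephrins on neighbouring cells, plexins and neuropilins bind semaphorins, Robo receptors bind the repellent Slits, and netrin acts through Dcc and the Unc5 receptors. Rtn4 (Nogo) is a reticulon whose long form limits axon growth from myelin through the receptor Rtn4r. In the hippocampus these families are known for shaping the mossy fibre and entorhinal pathways during development and for acting on dendritic spines and synapses later.

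The arrays carried the RNA of hippocampal neurons: all 10 pyramidal and granule cell markers named on the array, of 12 listed, were above the filter on low values, among them Prox1, a granule cell transcription factor, with signals of 225 to 253. Array medians lay between 70.06 and 74.1. The third KA_enriched array stood apart from the rest, with the lowest mean correlation to the other arrays (0.983, the others 0.986 to 0.9884) and the highest log2 ratio of the 3′ to the 5′ beta-actin probe sets, a sign of RNA quality (0.856, the others 0.361 to 0.639). The summed signal of 14 of 15 microglia and macrophage markers (Itgam was not above the filter) was 2131 to 2236 in the PBS_isolated pools and 2917 to 3435 in the KA_isolated pools. It was 3166 in the second PBS_enriched pool and 3165 in the third KA_enriched pool, and 1951 to 2262 in the other enriched pools. The part of these 2 measures in the results was not tested, except that each result was also computed without single arrays, without the 2 enriched pools of high microglial signal and with the beta-actin ratio as a covariate. In pooled tissue, fewer cells of a type and less RNA per cell cannot be told apart.

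Promoters of Epha5, Plxnb2 and Nrp1 show the sequence from which these transcripts start. These genes are among the 4 members of smallest p in the F test for any difference among the 4 groups. Slit1, also among those 4, had no entry in RefSeq's promoter table. RefSeq's promoter table (rat build GRCr8, 250 bases before the annotated start and 50 after it) held 35 of the 45 member genes. Each is written 5′ to 3′ on the gene's strand, and capitals mark matches to the letters GCGNGGGCG (the EGR motif) or GGGCGG (the GC box) on either strand.
Epha5, chr14:24007872-24008171, plus strand: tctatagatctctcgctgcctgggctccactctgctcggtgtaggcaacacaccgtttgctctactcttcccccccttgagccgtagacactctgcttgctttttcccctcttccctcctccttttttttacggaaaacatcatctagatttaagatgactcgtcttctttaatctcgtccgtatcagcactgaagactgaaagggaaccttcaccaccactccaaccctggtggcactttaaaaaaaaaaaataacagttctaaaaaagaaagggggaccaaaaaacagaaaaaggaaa
Plxnb2, chr7:122137899-122138198, minus strand: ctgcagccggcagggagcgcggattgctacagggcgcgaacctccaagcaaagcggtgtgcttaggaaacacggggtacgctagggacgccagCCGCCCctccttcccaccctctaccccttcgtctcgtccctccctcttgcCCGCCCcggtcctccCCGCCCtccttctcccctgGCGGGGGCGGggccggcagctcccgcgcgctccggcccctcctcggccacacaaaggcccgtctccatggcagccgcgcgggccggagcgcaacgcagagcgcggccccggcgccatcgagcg
Nrp1, chr19:73256307-73256606, plus strand: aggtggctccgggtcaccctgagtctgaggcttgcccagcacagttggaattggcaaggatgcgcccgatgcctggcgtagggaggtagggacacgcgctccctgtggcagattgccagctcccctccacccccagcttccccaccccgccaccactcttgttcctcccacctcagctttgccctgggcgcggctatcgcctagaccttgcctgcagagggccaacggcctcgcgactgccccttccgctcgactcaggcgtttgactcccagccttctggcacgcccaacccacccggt

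The Plxnb2 promoter held 1 EGR match and 4 GC box matches, and the EGR match overlaps a GC box. Its 300 bases were 73.7% G or C, against 44.7% for Epha5 and 66.3% for Nrp1, and neither of those promoters held a match to these motifs. Over all 35 promoters the median was 64% G or C and 18 CpG dinucleotides, against 51.7% and 7 over all 33469 rat promoters of that length. The GC box letters occurred in 21 of the 35 (60%) against 33.06% of all promoters, and the EGR letters in 6, or 17.1%, against 4.98%. Those 6 were Efna1, Epha8, Plxna2, Plxnb2, Plxnc1 and Sema6d. The cyclic AMP response element TGACGTCA occurred in 1, Epha2 (2.9%), against 1.83% of all. The matches describe letters in this window only.

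Of the 61 member probe sets, 37 of 30 genes lay among the 60% of probe sets with the highest mean and were tested. The other 24 were dim, with mean signals of 1.93 to 44.5, and 15 genes had no probe set above the filter. These were Epha2, Epha3, Epha8, Epha10, Ephb4, Efna1, Efnb1, Dcc, Nrp2, Plxnd1, Sema3a, Sema3b, Sema4b, Slit2 and Unc5cl. The member just below the filter was Unc5cl with a mean of 44.5, and the member just above it was Slit1 with 49.3. Within groups the SD of log2 values of the tested members had a median of 0.136 and ran from 0.0533 for Nrp1 (probe set 1373577_at) to 0.238 for Robo1. Over all 9520 probe sets tested, the median was 0.123.

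**Figure D1:**
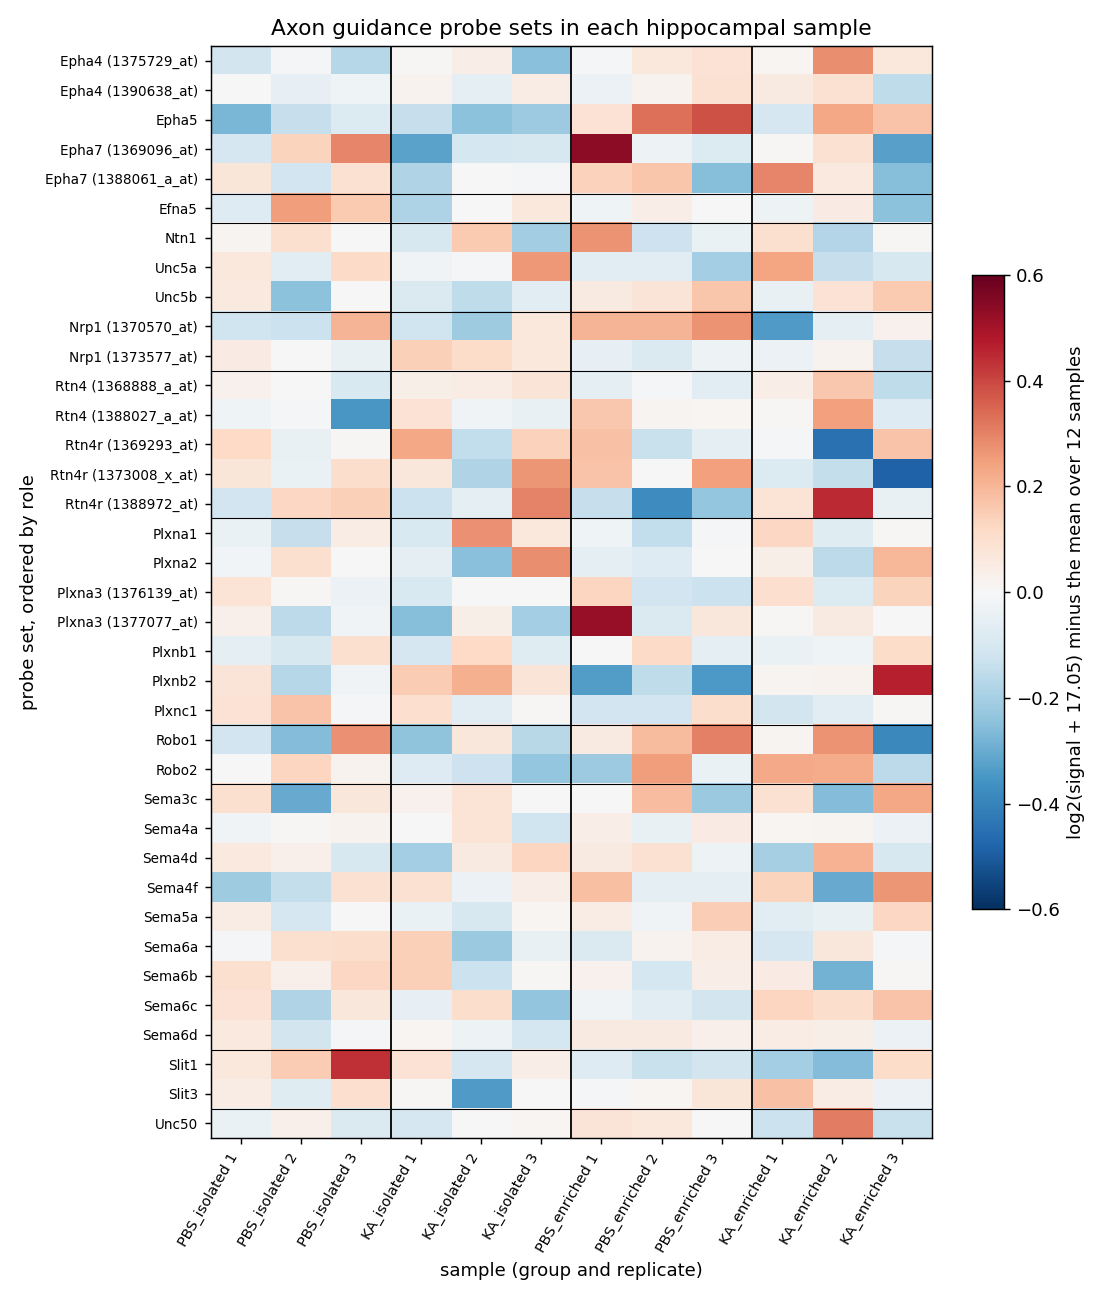
Difference of each tested member's log2(signal + 17.05) from its mean over the 12 samples, by sample (columns, 3 pools per group) and probe set (rows, grouped by role). The Epha5 row is higher in the enriched than in the isolated pools within each treatment, although the first KA_enriched pool (183) is under the third PBS_isolated pool (186), and most other rows show no block by group.

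No member passed the threshold after adjustment in any comparison between the groups. Differences were computed with limma on log2(signal + 17.05), the addition being the 20th percentile of all values, and p-values were adjusted by the Benjamini-Hochberg method over all 9520 probe sets. Adjusted p was 0.05 or more for all 37 members in each of the 7 comparisons and in the F test over the 4 groups. The F test had an unadjusted p under 0.05 for 4 of the 37 members (10.8%), against 4.95% of all probe sets tested. They were Epha5 (adjusted p = 0.740), Plxnb2 (adjusted p = 0.861), Slit1 and Nrp1 probe set 1370570_at (adjusted p = 0.953 each). The same test called 0.0105% of all probe sets.

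Epha5, a receptor of the ephrin-A ligands, had the smallest p of any member in the housing comparison. Its signal was 160.3, 177 and 186 in the PBS_isolated pools and 177, 164 and 167 in the KA_isolated pools. It was 210.1, 252 and 262 in the PBS_enriched pools and 183, 234 and 224 in the KA_enriched pools. All 3 enriched pools lay above all 3 isolated pools within each treatment, although the lowest KA_enriched pool (183) was under the highest PBS_isolated pool (186). The group means were 174 ± 12.9, 169 ± 7.16, 242 ± 27.8 and 213 ± 27.3 (SD, n = 3 each), in that order.

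Enriched minus isolated over both treatments, the Epha5 difference was 0.37 on the log2 scale (SE 0.073, 95% interval 0.21 to 0.52), a fold of 1.29. Its unadjusted p was the ninth smallest of 9520, and the adjusted p was 0.251. After PBS the difference was 0.43 (SE 0.10, adjusted p = 0.892), and after KA it was 0.30 (SE 0.10, adjusted p = 0.631). The KA effect on Epha5 was -0.04 (SE 0.10) in isolated rats and -0.17 (SE 0.10) in enriched rats, and their difference, the interaction, was -0.13 with an interval of -0.45 to 0.18. The KA difference in enriched rats was -0.067 without the first KA_enriched pool and -0.258 without the first PBS_enriched pool. With the beta-actin ratio as a covariate the housing difference was 0.31 (adjusted p = 0.792), and without the 2 pools of high microglial signal it was 0.33 (adjusted p = 0.473).

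Epha4, an Eph receptor that binds ephrins of both classes and is found on hippocampal spines, was read by 2 probe sets that gave different housing differences. Probe set 1375729_at read 742, 797 and 709 in the PBS_isolated pools, 806, 824 and 670.4 in the KA_isolated pools, 797, 838 and 851 in the PBS_enriched pools and 808, 975 and 838 in the KA_enriched pools. After PBS the highest isolated pool (796.9) lay barely under the lowest enriched pool (797.1), and after KA the housings overlapped. Its difference for housing over both treatments was 0.16 (SE 0.068, adjusted p = 0.832). Probe set 1390638_at, with signals of 1054 to 1254 over the 12 samples, had a housing difference of 0.02 (SE 0.056).

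Epha7, which binds ephrin-A ligands, also had 2 probe sets. Probe set 1369096_at read 44.5, 55.3 and 63.8 in the PBS_isolated pools, 35.7, 44.4 and 44.7 in the KA_isolated pools, 78.6, 47.5 and 45.4 in the PBS_enriched pools and 49.2, 53.2 and 35.6 in the KA_enriched pools. The KA pools overlapped the PBS pools in both housings, and the first PBS_enriched pool was the highest. KA minus PBS over both housings gave -0.25 (SE 0.11, adjusted p = 0.996) for this probe set. Probe set 1388061_a_at, with signals of 77.9 to 122, gave -0.03. The ephrin ligands were dim: Efna5 was read by 1 probe set above the filter with group means of 56.4 ± 8.45, 48.9 ± 5.85, 50.8 ± 1.54 and 47.4 ± 6.70 (SD, n = 3 each) in the order PBS_isolated, KA_isolated, PBS_enriched and KA_enriched. Its pools overlapped across all groups. Below the filter, the mean over the 12 samples was 24.4 for Ephb4, the only EphB receptor named here, and 42.5 for the brighter probe set of Efnb1, an ephrin-B ligand.

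**Figure D2:**
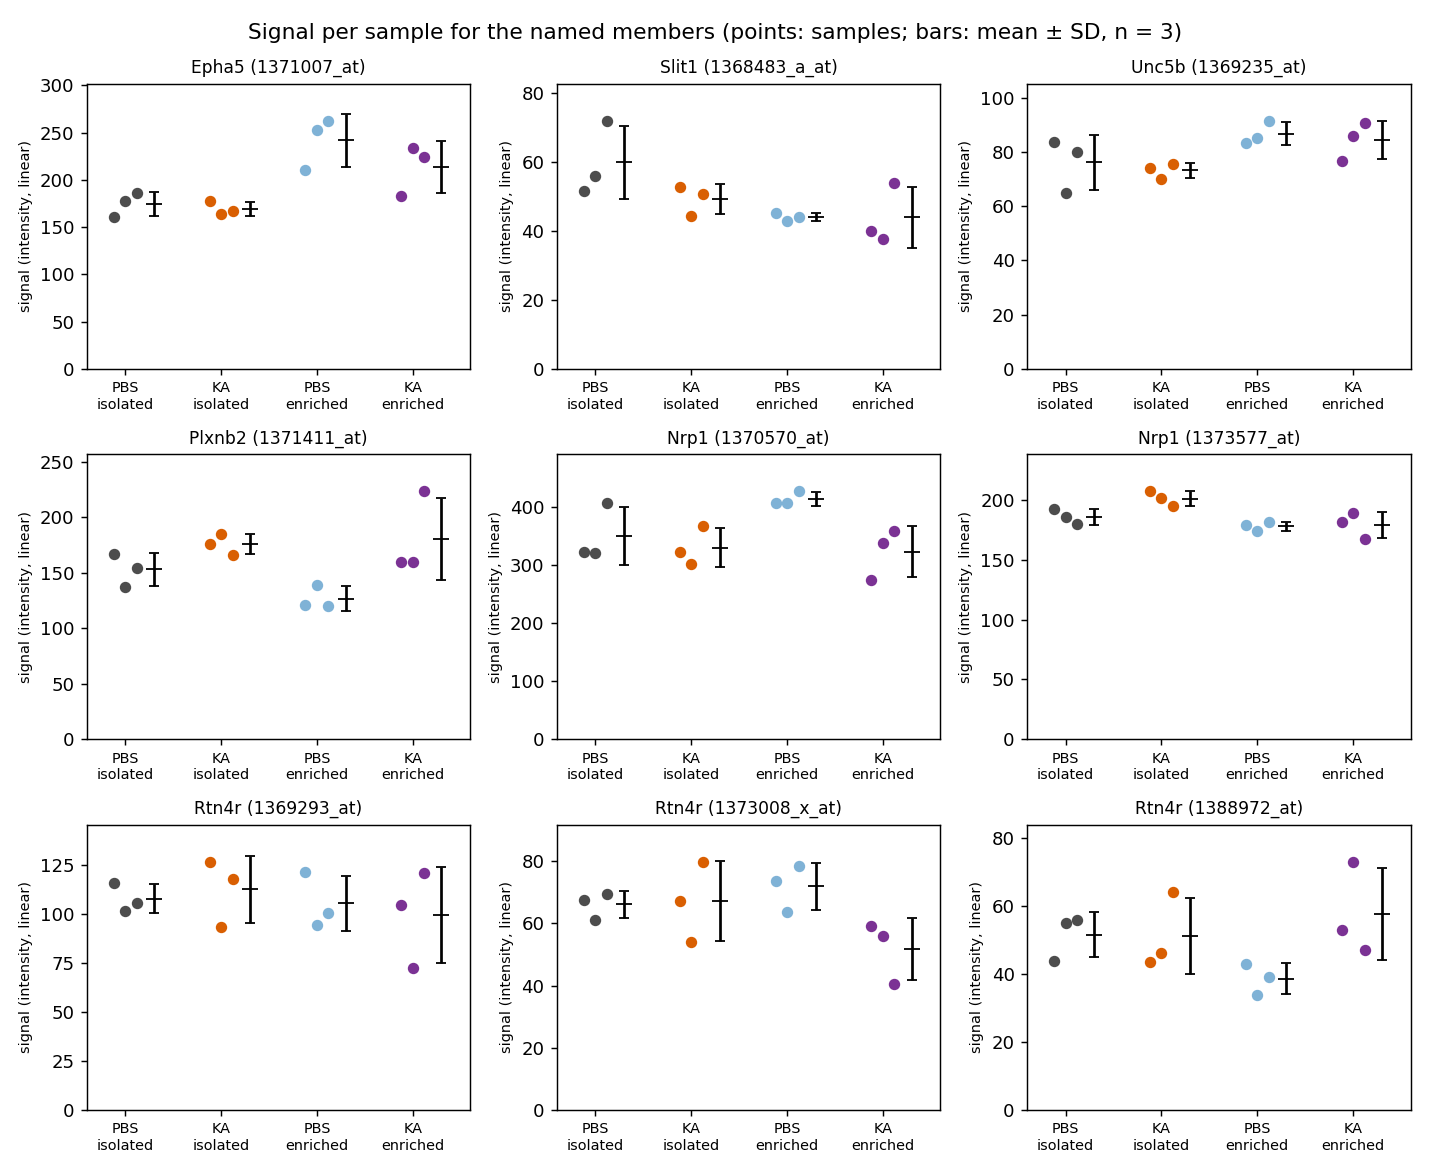
Signal of named members in each of the 12 pools (points) with the group mean ± SD (bar, n = 3), on a linear axis of array intensity, 1 panel per probe set. Epha5 reads 160.3 to 186 in the isolated pools and 183 to 262 in the enriched pools, and Plxnb2 reads 120.1 to 139 in the PBS_enriched pools and 159 to 223 in the KA_enriched pools.

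Slit1, a secreted repellent for Robo-bearing axons, read 51.6, 56.0 and 71.9 in the PBS_isolated pools and 52.9, 44.3 and 50.6 in the KA_isolated pools. It read 45.2, 42.8 and 44.0 in the PBS_enriched pools and 39.97, 37.8 and 54.0 in the KA_enriched pools. The PBS_enriched pools all lay below the PBS_isolated pools, and after KA the housings overlapped. Enriched minus isolated over both treatments was -0.23 (SE 0.080, interval -0.40 to -0.05, adjusted p = 0.832), and after PBS it was -0.32 (SE 0.11, adjusted p = 0.998). Without the third PBS_isolated pool the latter was -0.215. KA minus PBS in isolated rats was -0.21 (SE 0.11, adjusted p = 0.999), the smallest p of any member there. Without the third PBS_isolated pool this KA difference was -0.0978. Slit1 was the member nearest above the filter, so the added 17.05 shrinks its fold most.

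Slit3, another Slit ligand, had group means between 112 ± 16.9 in the KA_isolated pools and 128 ± 10.9 in the KA_enriched pools (SD, n = 3 each), and its pools overlapped. The receptor Robo2 read 68.6, 76.4 and 69.8 in the PBS_isolated pools, 64.1, 61.4 and 55.7 in the KA_isolated pools, 56.4, 84.8 and 66.2 in the PBS_enriched pools and 82.9, 82.7 and 59.6 in the KA_enriched pools. All 3 KA_isolated pools were below all PBS_isolated pools, while the enriched groups overlapped. The KA effect was -0.20 (SE 0.12) in isolated rats and 0.10 (SE 0.12) in enriched rats, and the interaction was 0.29 (SE 0.18, adjusted p = 0.953), or 0.186 without the first PBS_enriched pool. Robo1, the receptor with the widest spread of any tested member, read 60.6 to 108 over the 12 samples.

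Unc5b, a netrin receptor that mediates repulsion, read 83.7, 64.7 and 80.1 in the PBS_isolated pools and 74.2, 70.0 and 75.4 in the KA_isolated pools. It read 83.4, 85.1 and 91.5 in the PBS_enriched pools and 76.8, 85.7 and 90.8 in the KA_enriched pools. After KA the enriched pools were all above the isolated pools, and after PBS they overlapped, with 83.4 under 83.7. The housing difference over both treatments was 0.16 (SE 0.063, interval 0.03 to 0.30, adjusted p = 0.832). Unc5a, a related receptor, had group means of 145 ± 8.88 in the PBS_enriched pools to 168 ± 21.1 in the KA_isolated pools (SD, n = 3 each). The ligand Ntn1 had 1 of 3 probe sets above the filter, which read 41.1 to 64.1, and Dcc, the receptor for attraction, was below it with a highest signal of 44.4. Unc50, a membrane protein and no netrin receptor, read 220.5 to 306.

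Plxnb2, a plexin that binds class 4 semaphorins, had the smallest p of any member for KA in enriched rats and over both housings. Its signal was 167, 137 and 155 in the PBS_isolated pools and 176, 185 and 166 in the KA_isolated pools. In the enriched rats it was 121, 139 and 120.1 after PBS and 159, 159 and 223 after KA. All 3 KA_enriched pools were above all PBS_enriched pools, the third KA_enriched pool being the highest of the 12, and the isolated groups overlapped by 166 against 167.

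KA minus PBS over both housings, the Plxnb2 difference was 0.32 on the log2 scale (SE 0.083, interval 0.14 to 0.49), a fold of 1.24 (adjusted p = 0.996). In enriched rats it was 0.45 (SE 0.12, adjusted p = 0.843), and without the third KA_enriched pool, whose microglial sum and beta-actin ratio were also high, it was 0.30. In isolated rats the difference was 0.19 (SE 0.12), or 0.118 without the second PBS_isolated pool, and the interaction was 0.26 (SE 0.17, interval -0.10 to 0.62). Enriched minus isolated after PBS was -0.24 (SE 0.12).

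Plxna1, a receptor for class 3 and class 6 semaphorins, read 147, 136 and 157 in the PBS_isolated pools, 141, 187 and 159 in the KA_isolated pools, 149, 135 and 150.4 in the PBS_enriched pools and 167, 143 and 152 in the KA_enriched pools. Its KA difference in isolated rats was 0.13 (SE 0.097), and 0.03 without the second KA_isolated pool, at 187 the highest of the 12. These values are of probe set 1374453_at. A dim Plxna1 probe set below the filter, 1375482_at, read 17.6 to 39.0 and went the other way. Fitted with no filter, its KA difference was -0.18 (SE 0.13) in isolated rats and -0.20 (SE 0.090) over both housings (adjusted p = 0.999 each). Plxnc1, the receptor of Sema7a, had a housing difference over both treatments of -0.10 (SE 0.060). Plxnb1, a receptor of Sema4d, read 228 to 269 with overlapping groups, Plxna2 read 84.2 to 129, and the 2 probe sets of Plxna3 read 119 to 146 and 76.7 to 144.

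Nrp1, the co-receptor through which class 3 semaphorins and VEGF act, was read by 2 probe sets whose patterns over the pools differed. Probe set 1370570_at read 322, 320.3 and 407 in the PBS_isolated pools, 322, 301 and 368 in the KA_isolated pools, 407, 407 and 427 in the PBS_enriched pools and 274, 338 and 358 in the KA_enriched pools. All 3 KA_enriched pools were below all PBS_enriched pools, a difference of -0.35 (SE 0.12, interval -0.60 to -0.10, adjusted p = 0.932). In isolated rats the KA difference of this probe set was -0.07 (SE 0.12), and the interaction was -0.27 (SE 0.16), or -0.164 without the first KA_enriched pool. Nrp1 is also expressed in endothelium, and the summed signal of 7 of 14 endothelial and mural markers was 1319 to 1380 in the PBS_enriched pools and 1169 to 1443 in the KA_enriched pools.

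The other Nrp1 probe set, 1373577_at, read 193, 186 and 179.7 in the PBS_isolated pools, 207, 202 and 195 in the KA_isolated pools, 179, 174 and 181 in the PBS_enriched pools and 181, 189 and 167 in the KA_enriched pools. All KA_isolated pools were above all PBS_isolated pools, and all KA_enriched pools were below all KA_isolated pools. The KA difference was 0.10 (SE 0.069) in isolated rats and 0.01 (SE 0.069) in enriched rats. The housing difference was -0.15 after KA (SE 0.069, adjusted p = 0.694) and -0.11 over both treatments (SE 0.049, adjusted p = 0.876).

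Of the semaphorins, 9 of 12 genes were tested, and none had an unadjusted p under 0.05 in any of the 7 comparisons. Sema6c, a transmembrane semaphorin, read 122, 98.1 and 120.0 in the PBS_isolated pools, 109, 124 and 93.9 in the KA_isolated pools, 112, 108 and 104 in the PBS_enriched pools and 126, 123 and 130.1 in the KA_enriched pools (probe set 1370551_a_at). The KA_enriched pools were all above the PBS_enriched pools, and the isolated groups overlapped. KA minus PBS was 0.20 in enriched rats (SE 0.096, adjusted p = 0.932) and -0.05 in isolated rats (SE 0.096), and the interaction was 0.25 (SE 0.14), or 0.161 without the third KA_isolated pool. Sema6d, another transmembrane semaphorin, read 304 to 344 over the 12 samples and Sema4a, which also acts in the immune system, read 155 to 181. The class 3 repellents Sema3a and Sema3b were below the filter, with highest signals of 4.11 and 9.58, while Sema3c read 122 to 184. The transmembrane semaphorins Sema4d, the ligand of Plxnb1, and Sema4f read 161 to 220.4 and 131 to 202, and Sema6a and Sema6b, ligands of class A plexins, read 69.2 to 94.4 and 199.95 to 275. Sema5a, a semaphorin with thrombospondin repeats, had 1 probe set above the filter that read 201 to 241. The groups of these 5 genes overlapped in each comparison of 3 pools with 3.

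The Nogo transcript Rtn4 was read by 2 bright probe sets. Probe set 1368888_a_at had group means of 1288 ± 55.3 in the PBS_isolated pools, 1358 ± 22.9 in the KA_isolated pools, 1269 ± 24.9 in the PBS_enriched pools and 1329 ± 145 in the KA_enriched pools (SD, n = 3 each). Probe set 1388027_a_at had means of 1113 ± 144, 1218 ± 60.4, 1267 ± 76.8 and 1269 ± 154 in the same order. For the first, all KA_isolated pools (1341 to 1384) lay above all PBS_isolated pools (1226 to 1332), and the enriched groups overlapped. For the second, all PBS_enriched pools lay above all PBS_isolated pools, a difference of 0.19 (SE 0.11, adjusted p = 0.998).

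The Nogo receptor gene Rtn4r had 3 probe sets above the filter, and in enriched rats they gave KA differences of opposite sign. Probe set 1373008_x_at read 67.6, 61.2 and 69.5 in the PBS_isolated pools, 67.3, 54.1 and 79.9 in the KA_isolated pools, 73.7, 63.6 and 78.4 in the PBS_enriched pools and 59.2, 55.9 and 40.4 in the KA_enriched pools. Probe set 1388972_at read 43.9, 54.9 and 55.9 in the PBS_isolated pools, 43.4, 46.3 and 64.1 in the KA_isolated pools, 42.9, 33.9 and 39.1 in the PBS_enriched pools and 52.8, 73.0 and 47.0 in the KA_enriched pools. In enriched rats all KA pools lay below the PBS pools for 1373008_x_at and above them for 1388972_at.

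The KA difference in enriched rats was -0.38 (SE 0.13, adjusted p = 0.932) for Rtn4r probe set 1373008_x_at and 0.41 (SE 0.14, adjusted p = 0.932) for 1388972_at. For the former it was -0.251 without the third KA_enriched pool, and for the latter 0.27 without the second KA_enriched pool. Their interactions were -0.38 (SE 0.18) and 0.43 (SE 0.20), each with an adjusted p of 0.951. Without the same pools these were -0.258 and 0.283. After PBS, enriched minus isolated was -0.30 for 1388972_at (SE 0.14), and after KA it was -0.29 for 1373008_x_at (SE 0.13), or -0.163 without the third KA_enriched pool, whose array stood apart. The third probe set, 1369293_at, had a KA difference in enriched rats of -0.09 (SE 0.15) and a housing difference after KA of -0.17 (SE 0.15), which was 0.01 without the second KA_enriched pool. Names ending in x mark probe sets whose probes can also bind other transcripts.

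**Figure D3:**
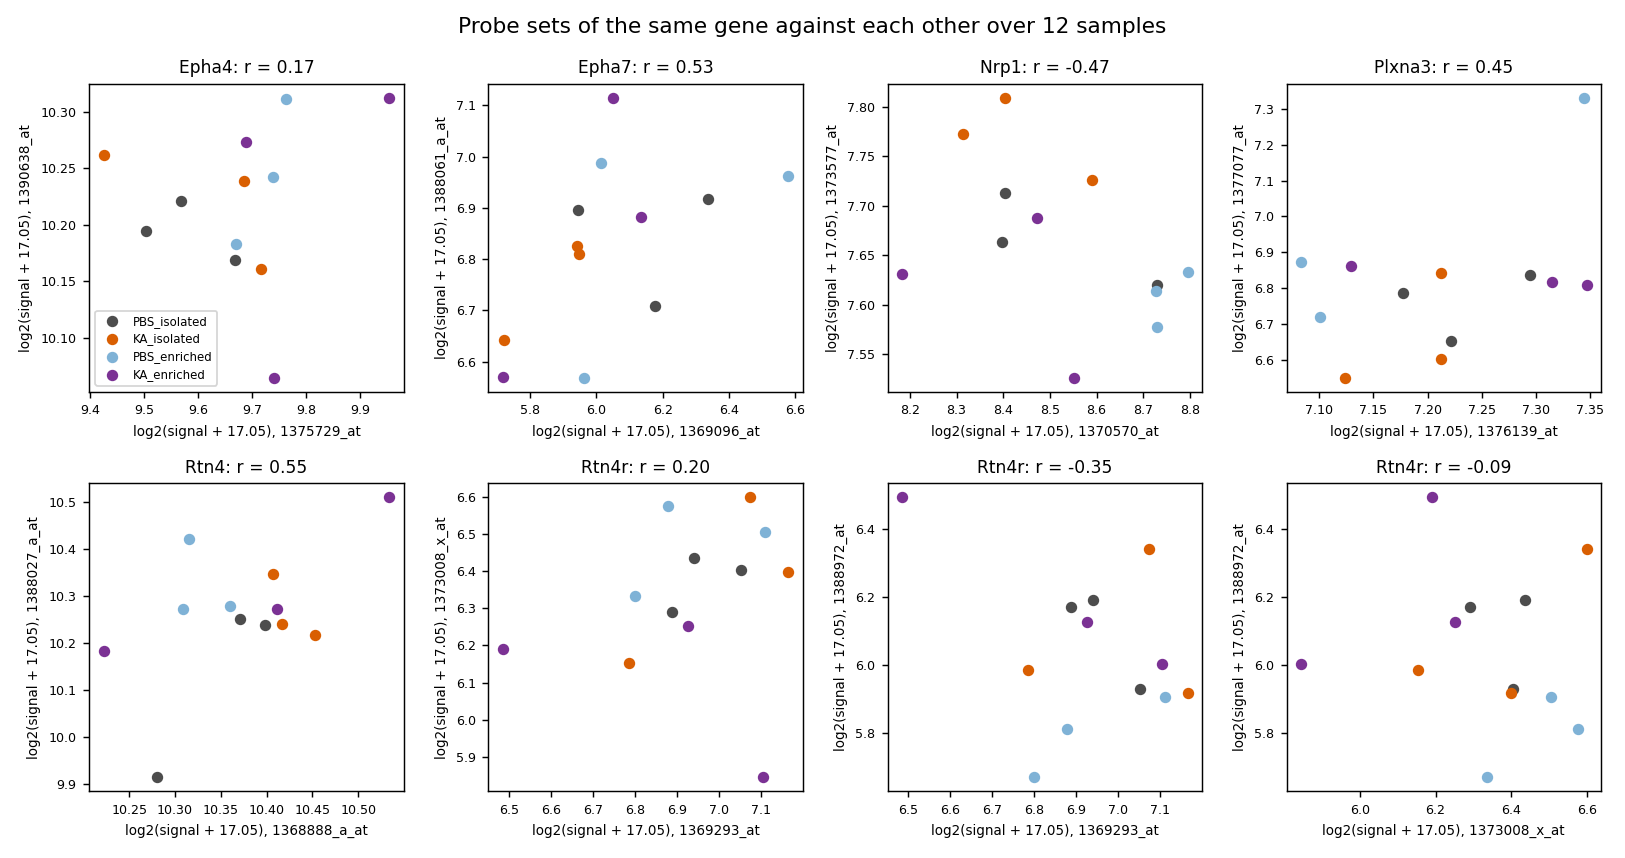
Log2(signal + 17.05) of 1 probe set against another of the same gene over the 12 pools, coloured by group, for the 8 pairs of the 6 genes with several probe sets above the filter. The Nrp1 pair slopes down (r = -0.47) and the Epha7 pair slopes up (r = 0.533).

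For the 8 pairs of Epha4, Epha7, Nrp1, Plxna3, Rtn4 and Rtn4r, Pearson's r over the 12 samples ran from -0.47 to 0.551, and no pair had a permutation p under 0.05 (100000 permutations, two-sided). For Nrp1 it was -0.47 (p = 0.125, adjusted over the 8 pairs 0.28) with a Spearman coefficient of -0.455 (p = 0.141), -0.677 without the 2 samples farthest from the median, and -0.505 within groups. In each pair those 2 samples were picked by the lower-numbered probe set alone, so samples extreme only in the other probe set stayed in. For Rtn4 it was 0.551 (p = 0.0618, adjusted 0.28) with a Spearman coefficient of 0.308 (p = 0.331), 0.31 without those 2 samples, and 0.707 within groups. For Epha7 it was 0.533 (p = 0.0721, adjusted 0.28) with a Spearman coefficient of 0.538 (p = 0.0744), 0.507 without them, and 0.557 within groups. For Plxna3 it was 0.447 (permutation p = 0.14, adjusted 0.28) with a Spearman coefficient of 0.126 (permutation p = 0.699), 0.0993 without them, and 0.646 within groups. For Rtn4r 1373008_x_at and 1388972_at it was -0.0913 (permutation p = 0.777, adjusted 0.777) with a Spearman coefficient of -0.189 (permutation p = 0.555), -0.504 without them, and 0.59 within groups.

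In the KA comparisons the member with the smallest p was Slit1 in isolated rats and Plxnb2 in enriched rats and over both housings, and 0 members were called. In isolated rats 0 of the 37 members had an unadjusted p under 0.05, against 4.31% of all probe sets, and 0 were called against 0.0105% of all. Their differences ran from -0.28 for Epha7 to 0.19 for Plxnb2. In enriched rats 4 of 37 (10.8%) had an unadjusted p under 0.05 against 4.98% of all, and 0 members and 0% of all probe sets were called. Of the 4, Plxnb2 and Rtn4r (1388972_at) were higher after KA, and Nrp1 (1370570_at) and Rtn4r (1373008_x_at) were lower. Over both housings it was 3 of 37 (8.11%, Plxnb2, Nrp1 and Epha7) against 4.31%, with 0 called against 0.0105%. The median difference of the members was -0.0211 in isolated rats, -0.0111 in enriched rats and -0.0262 over both, against -0.00534, -0.00331 and -0.00344 over all probe sets. Over both housings 13 members were higher and 24 lower after KA (35.1% higher, against 47.9% of all probe sets).

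In the housing comparisons, after PBS 3 of 37 members (8.11%, Epha5 higher, Slit1 and Rtn4r 1388972_at lower) had an unadjusted p under 0.05 against 4.21% of all probe sets, and 0 were called against 0.0105%. After KA it was 3 of 37 (8.11%, Epha5 higher, Rtn4r 1373008_x_at and Nrp1 1373577_at lower) against 7.02%, and 0 members and 0% of all were called. Over both treatments it was 5 of 37 (13.5%) against 5.64%, with Epha5, Unc5b and Epha4 higher and Slit1 and Nrp1 (1373577_at) lower in enriched rats, and 0 were called against 0.0210%. The median difference of the members was 0.0127 over both treatments, with 23 members higher and 14 lower (62.2% higher, against 51% of all probe sets), and over all probe sets the median was 0.00205. For the interaction it was 1 of 37 (2.7%, Rtn4r 1388972_at) against 4.97%, and 0 members and 0% of all were called.

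The 95% intervals set what these arrays could resolve. For a comparison of 3 pools with 3, a member's interval reached 0.149 to 0.353 to either side of its difference on the log2 scale, with a median of 0.228. Over both housings or treatments it was 0.105 to 0.25, and for the interaction 0.211 to 0.5. An adjusted p that misses the threshold does not show that a member's level was equal in the groups. Nor does a lack of overlap between 3 pools and 3 by itself show a difference, since so few pools can lie apart by chance. The share of members whose groups lay apart was not compared with that of all probe sets. Statements that all pools of a group lay above or below those of another therefore describe the values only.

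**Figure D4:**
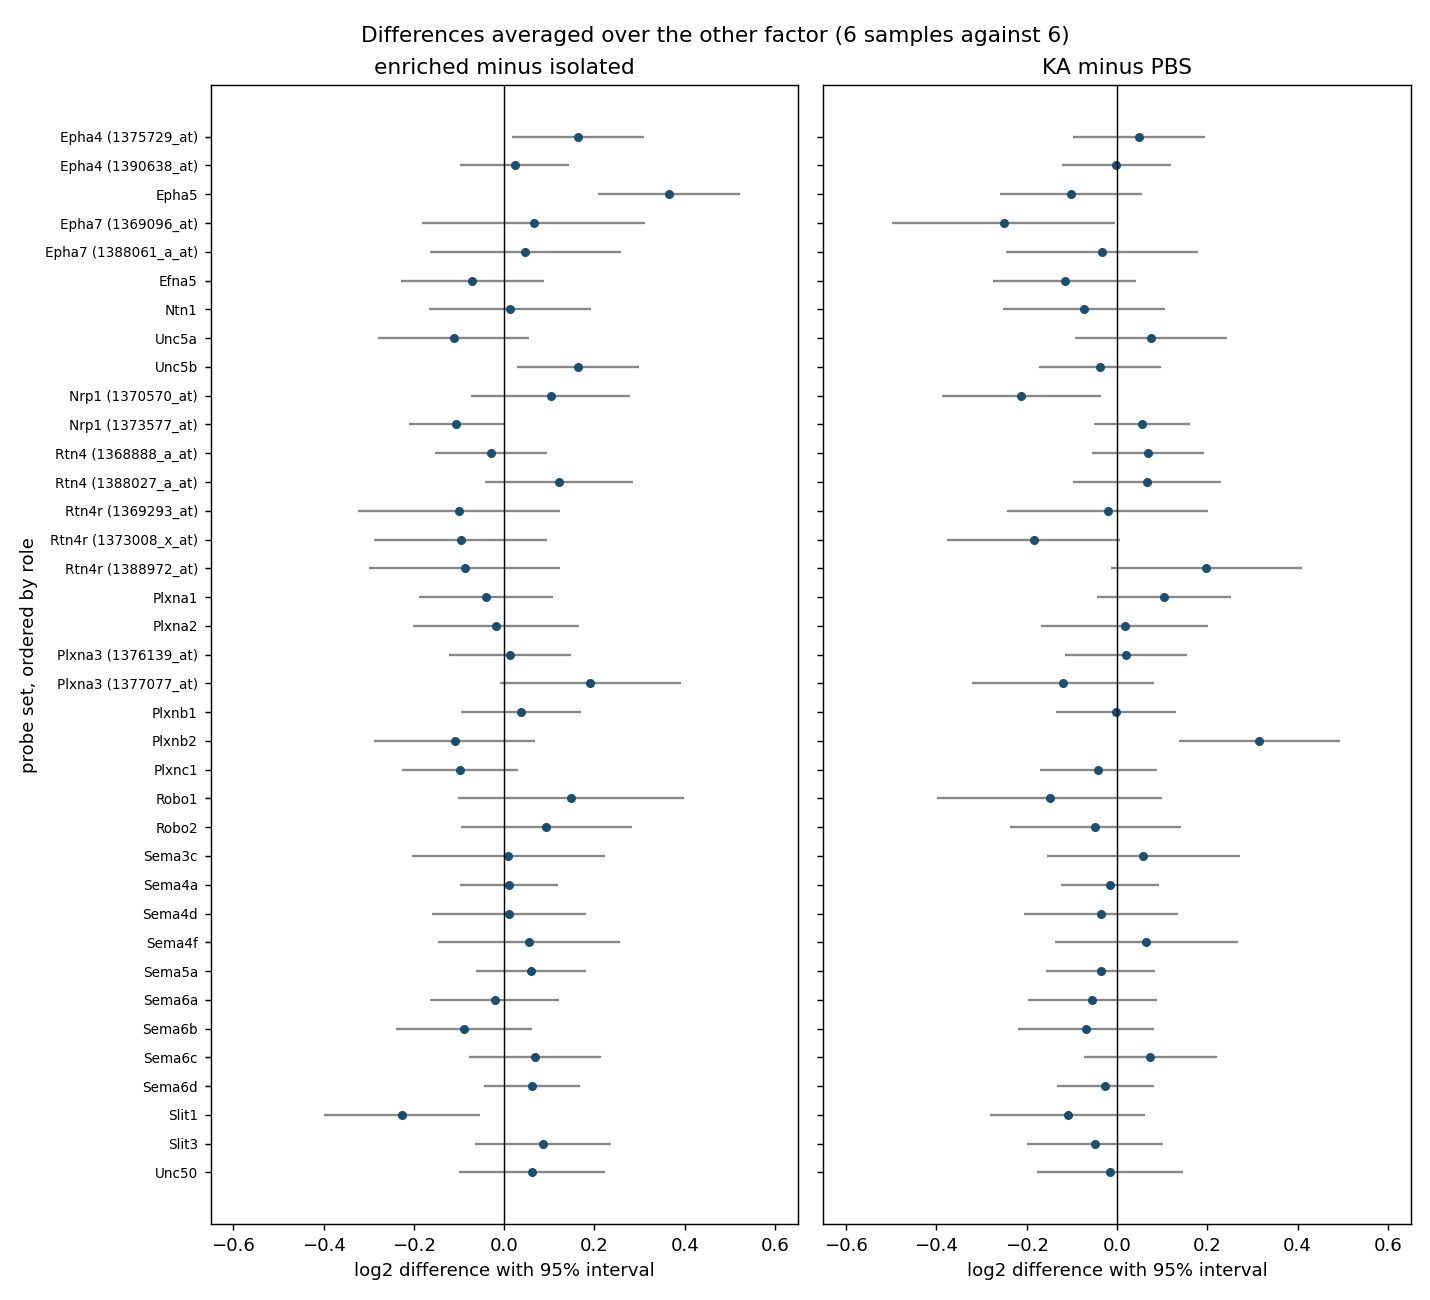
Log2 difference (point) with its 95% interval (line) for each of the 37 tested members, for enriched minus isolated over both treatments and for KA minus PBS over both housings. Epha5 lies at 0.37 for housing and Plxnb2 at 0.32 for KA, and most intervals cross 0.

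Genes that act downstream of these receptors or beside them showed no calls either. Of 36 listed genes of guidance signalling inside the cell, 25 were tested, and 0 were called in any of the 7 comparisons. In the interaction Ngef, an exchange factor that binds EphA receptors, had the smallest p (0.31, SE 0.14, adjusted p = 0.951), and for housing over both treatments Rasa1, a Ras GTPase activator that binds Eph receptors, had 0.09 (SE 0.060). The collapsin response gene Crmp1, which acts in semaphorin signalling, had -0.08 (SE 0.050) for housing. For KA over both housings the smallest p-values were those of Srgap2, a Rac regulator that binds Robo, at -0.10 (SE 0.049), and of the exchange factor Trio at -0.12 (SE 0.072). The list's median was -0.0122 for housing over both treatments and -0.0154 for KA over both housings, against 0.00205 and -0.00344 over all probe sets tested.

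Of 35 listed genes of other cues and receptors, 24 were tested and 0 were called. Mag, a myelin protein that limits axon growth and can bind Rtn4r, had a housing difference over both treatments of 0.17 (SE 0.059, adjusted p = 0.832). Tnr, a matrix glycoprotein of perineuronal nets, had an interaction of -0.44 (SE 0.14, adjusted p = 0.910). Lingo1, which pairs with Rtn4r in the Nogo receptor complex, had -0.19 (SE 0.11) for KA over both housings, and Dscam, an adhesion receptor that also binds netrin, had -0.11 (SE 0.081). Ptprs, a receptor of chondroitin sulphate proteoglycans, had -0.09 (SE 0.049) for housing, and Celsr3, a cadherin needed for axon tracts, had 0.23 (SE 0.11) for the interaction. The medians of the list were 0.0161 for housing and -0.0185 for KA. Of the 8 lists of cell type markers, 0 genes were called in any comparison. The microglia and macrophage list still had a direction: after KA in isolated rats all 14 tested were higher (median 0.504). Of these, 11 had an unadjusted p under 0.05, against 4.31% of all probe sets. In the interaction 8 of the 14 were lower with an unadjusted p under 0.05 (list median -0.505), against 4.97% of all in either direction. The summed signal of 11 of 14 oligodendrocyte and myelin markers was 14469 to 16586 over the 12 samples, with overlapping groups. The sum of 10 astrocyte markers was 12051 to 12838 in the KA_isolated pools and 11051 to 12130 in the PBS_isolated pools. It was 11507 to 12450 in the KA_enriched and 11089 to 11825 in the PBS_enriched pools. Gene by gene, 6 of the 10 were higher after KA in isolated rats (median 0.0379), 1 with an unadjusted p under 0.05. The sum of 10 meninges and choroid plexus markers was highest, at 5902, in the first PBS_isolated pool (the others 1647 to 3211). The sum of 9 interneuron markers was 4456 to 4485 in the PBS_isolated pools and lower in every pool of the other groups, at 4137 to 4402 in the KA_isolated, 4165 to 4326 in the PBS_enriched and 4082 to 4264 in the KA_enriched pools. Bright genes weigh most in such a sum. Gene by gene, 5 of the 9 were higher in enriched rats over both treatments (median 0.00669), although Cck (-0.19) and Sst (-0.18) were lower. After KA in isolated rats 0 of the 9 were higher (median -0.0327). That of 6 thalamus and striatum markers, which would mark tissue from outside the hippocampus, was 684 to 709 in the PBS_isolated pools and 725 to 750 in the PBS_enriched pools, 691 to 709 in the KA_isolated pools and 701 to 740 in the KA_enriched pools. Pyramidal and granule cell markers summed to 7624 to 8310 over the 12 samples. Gene by gene, after KA in isolated rats 6 of the 10 were higher (median 0.0159). Of the others, 3 were lower with an unadjusted p under 0.05, against 4.31% of all probe sets in either direction. Among these were Wfs1 (-0.32, SE 0.087, adjusted p = 0.854) and Grp (-0.31, SE 0.10, adjusted p = 0.999). The part of these sums in the members' differences was not tested.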

How the data were processed

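Hippocampal RNA of 12 rat samples in 4 groups of 3 was read on single-colour Affymetrix-type arrays. The deposited values are probe set signals, array intensity on a linear scale (how probes were summarised: not given in the sources used here). The values show that the authors' intensity had been scaled to a mean of 150.03 on each array once the extreme 2% at either end was set aside. The 57 control probe sets were left out. Intensity was taken as log2(signal + 17.05), the 20th percentile of the table, which understates the fold of dim genes. The 60% of probe sets with the highest mean, 9520, were tested.

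limma 3.58.1 in R 4.3.3 fitted 1 mean per group over all 12 samples (13.1 degrees of freedom), with 7 contrasts and an F test, two-sided, with Benjamini-Hochberg adjustment over all 9520. The number of arrays limits the precision. Groups came from the sample descriptions and replicate numbers from the titles. Gene names came from the array annotation (12789 probe sets with 1 symbol, 312 with several, 2822 not listed), and all 61 members matched RefSeq by gene ID.

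Named were, per contrast, the 3 members higher and the 3 lower of smallest p, the 4 of smallest p in the F test, the member of highest mean signal per family, and genes with several probe sets; of 2 pathway lists, the 2 genes of smallest p. Another 8 lists hold cell type markers. The members, lists and rule were chosen with earlier results of these data known. The steps were tested on simulated data. Alternatives were other pseudocounts, filters and scalings, array weights, a replicate block, a beta-actin covariate, and samples left out.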

Additional observations from a re-analysis of the deposited data

How the results depend on the processing

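Under 23 alternative settings (pseudocount, filter, scaling, array weights, covariate, block, groups entered and samples left out) there were 180 recomputed counts of members called, and all 180 were 0. The lowest adjusted p of a member under any of them was 0.12, for Epha5 in the housing comparison over both treatments without the first KA_enriched pool. Leaving out each replicate in turn moved that difference between 0.333 and 0.416. Of 924 recomputed differences of named members, 923 kept their direction and their side of the threshold. The exception was Rtn4r probe set 1369293_at, whose housing difference after KA was -0.17 and became 0.00754 without the second KA_enriched pool (range without single samples -0.303 to 0.00754), and the cause was not tested.

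Deviations from the group means were correlated between samples of different groups. Same-numbered samples had r from -0.0721 to 0.199 (18 pairs, 2 over 0.1), and differently numbered ones -0.142 to 0.101 (36 pairs, 1 over 0.1). Of the 12 samples, 5 had their highest r with a sample of their own number. So few pairs cannot decide whether same-numbered samples share more than a name. With the replicate block 0 members were called and the adjusted p of Epha5 was 0.214. A fit of only the groups compared could not be had where a contrast uses all 4 groups. With a filter keeping the highest 40% of probe sets, 22 members were tested. Signal near the background limits the 24 dim members.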

Other observations

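Some members below the filter are given here, chosen after their values were seen. With no filter, 9 of the 61 member probe sets (14.8%), 4 of them below the filter, had an unadjusted p under 0.05 for housing over both treatments, against 5.8% of all probe sets, and 0 were called by limma. This was the highest member share of the 7 comparisons. The lowest was in the interaction, with 1 of 61 (1.64%, against 5.43% of all), the Efna1 probe set given below. For KA in isolated rats it was 3 of 61 (4.92%, against 4.63%). In enriched rats KA gave 6 (9.84%, against 5.24%), and over both housings 7 (11.5%, against 4.51%). Housing gave 5 (8.2%, against 4.72%) after PBS and 7 (11.5%, against 6.8%) after KA. In each of these 0 members were called. Slit2, a Robo ligand, read 1.13, 0.802 and 1.003 in the PBS_isolated pools, 4.97, 0.674 and 4.32 in the KA_isolated pools, 9.41, 4.89 and 10.5 in the PBS_enriched pools and 8.85, 13.8 and 7.07 in the KA_enriched pools. Its housing difference was 0.44 (SE 0.084, adjusted p = 0.277). Such signals lie far under the added 17.05. Sema6c probe set 1375322_at read 8.25 to 15.6 in the isolated pools and 14.8 to 26.5 in the enriched pools, a housing difference of 0.345 (SE 0.093), while the brighter Sema6c probe set had 0.07 (SE 0.068).

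Efna1, an ephrin-A ligand, had an interaction of -0.73 (SE 0.18, adjusted p = 0.796) at probe set 1398273_at. Its group means there were 12.2 ± 1.73, 19.7 ± 2.57, 20.1 ± 6.13 and 11.1 ± 3.86 (SD, n = 3 each) in the order PBS_isolated, KA_isolated, PBS_enriched and KA_enriched. The other Efna1 probe set had means of 13.5 ± 3.04, 20.6 ± 4.99, 16.0 ± 9.61 and 18.9 ± 4.34.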
